A study of Mus musculus with 3 samples.

Results

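Endothelial cells that carry Gkn3 transcripts were examined in single-cell RNA-seq of sorted mouse hindbrain cells. A barcode, the droplet tag that stands for one captured cell, was taken as a Gkn3 endothelial barcode if it held at least 3000 UMIs (unique molecular identifiers, each one captured mRNA molecule), at most 20% of them from mt- genes, at least 5 UMIs of the endothelial tight junction gene Cldn5, at least 2 of Gkn3 and at most 1 of the pericyte gene Kcnj8. Of 8082 barcodes that met the UMI and mt- limits, 151 met this rule, 46 in GiprEYFP replicate 1, 91 in Glp1rEYFP replicate 1 and 14 in Glp1rEYFP replicate 2. They were set against 830 comparison endothelial barcodes, which had at least 10 UMIs of Cldn5, at most 1 of Kcnj8 and of Abcc9, and at most 1 of Gkn3, with 691, 122 and 17 in the same libraries. Values for the 3 libraries are given in that order throughout.

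The study profiled cells of the brainstem that express the receptors for the gut hormones GIP and GLP-1. In GiprEYFP mice, Gipr-Cre switches on an EYFP reporter, so that a cell which has expressed Cre carries EYFP, and Glp1rEYFP mice are named for Glp1r in the same way. Each library was made from the hindbrains of 4 to 6 male mice pooled together, aged 4 to 6 weeks and untreated as far as the labels say, with tissue taken between -6.00 mm and -8.12 mm from Bregma. All cells passed a sort for EYFP and for the nuclear dye DraQ5, so the share of any cell type also depends on the sort gate. The libraries held 62705038, 27277448 and 13568994 UMIs over all barcodes. Gipr and Glp1r genotypes were represented by 1 and 2 libraries, and genotype and library cannot be told apart.

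Brain vessels change along their length. Arterial endothelium faces the highest pressure and flow, lies on an inner elastic layer and a coat of smooth muscle, and is set up by Notch signalling together with SOX factors. Capillary endothelium is wrapped by pericytes and carries most of the transporters that supply the brain, which depend on canonical Wnt signalling, whereas venous endothelium is the main site where leukocytes attach. Gkn3 encodes a secreted gastrokine first known from the stomach and is used in brain atlases as a marker of arterial endothelium.

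The promoters of Gkn3 and of a pair of arterial genes that moved with it, Bmx and Edn1, are shown because SOX factors are part of the arterial programme. They are RefSeq windows of build GRCm38.p6, from 250 bases before to 50 bases after the start of the gene, written along the coding strand. Capitals mark the SOX core letters ACAAT or ATTGT, its reverse complement, which do not overlap each other in these windows. Gkn3 lies at chr6:87388886-87389185 on the minus strand, Bmx at chrX:164258144-164258443 on the minus strand and Edn1 at chr13:42301226-42301525 on the plus strand.
Gkn3: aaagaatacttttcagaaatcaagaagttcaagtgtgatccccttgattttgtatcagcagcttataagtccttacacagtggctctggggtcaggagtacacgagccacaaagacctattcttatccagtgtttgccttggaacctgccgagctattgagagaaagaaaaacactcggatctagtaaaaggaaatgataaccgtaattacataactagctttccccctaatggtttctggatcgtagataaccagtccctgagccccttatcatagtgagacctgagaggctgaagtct
Bmx: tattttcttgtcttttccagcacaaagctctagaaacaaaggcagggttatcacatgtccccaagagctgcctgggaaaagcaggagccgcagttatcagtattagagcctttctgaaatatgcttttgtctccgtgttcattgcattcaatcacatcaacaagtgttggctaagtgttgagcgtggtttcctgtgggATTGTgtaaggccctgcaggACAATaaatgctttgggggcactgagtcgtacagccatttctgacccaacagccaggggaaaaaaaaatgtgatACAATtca
Edn1: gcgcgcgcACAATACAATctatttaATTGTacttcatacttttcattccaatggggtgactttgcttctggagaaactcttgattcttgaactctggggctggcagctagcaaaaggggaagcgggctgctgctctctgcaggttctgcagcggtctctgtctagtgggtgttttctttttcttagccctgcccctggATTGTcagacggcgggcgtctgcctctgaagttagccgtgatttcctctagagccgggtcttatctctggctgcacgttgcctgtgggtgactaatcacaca
The Gkn3 window held 0 matches, the Bmx window 3 and the Edn1 window 4. Among all 32851 promoter windows in the table, 31.0% held at least 1 match. Among genes tested here that had a window, the share was 22.9%, and it was 28.6% of the 56 windowed genes that were higher in Gkn3 barcodes and 25.2% of the 127 that were lower.

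Gkn3 chose the barcodes, so its levels are a description. Summed over barcodes, the Gkn3 level was 1166, 1985 and 2129 CPM (UMIs of the gene per 1000000 UMIs of the profile) in Gkn3 barcodes and 4.11, 6.84 and 13.1 in comparison barcodes. In smooth muscle barcodes (at most 1 Cldn5 UMI and at least 10 UMIs each of Myh11 and Acta2) it was 4.13, 2.19 and 1.65. Over the 3 libraries together, pericyte, oligodendrocyte, neuron and fibroblast barcodes, gated in the same way on at least 5 UMIs of a pair of their markers, stood at 0.418, 0.402, 0.237 and 0 CPM. The gap between Gkn3 and comparison barcodes was set by the rule, which asked for at least 2 Gkn3 UMIs in the first and allowed at most 1 in the second. A single Gkn3 barcode held 2 to 122, 2 to 138 and 2 to 86 Gkn3 UMIs, with medians of 8, 18 and 14.5. Oligodendrocyte barcodes, which should lack the gene, held a Gkn3 UMI in 0.413%, 1.74% and 0.521% of cases.

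Some barcodes lay just inside or just outside the limits. Exactly 2 Gkn3 UMIs were found in 16 members, 10, 3 and 3 by library, and exactly 1 in 42 barcodes that met the other limits, 28, 12 and 2 by library. Mfsd2a had 44, 1 and 2 UMIs among the 88044, 23715 and 34704 UMIs of the members at exactly 2, and 102, 10 and 10 among the 300251, 147453 and 18690 of the barcodes at exactly 1. Bmx had 12, 3 and 1 UMIs in the former and 28, 11 and 2 in the latter. A Kcnj8 count of exactly 1 was found in 22 members and exactly 2 in 7 barcodes outside, and 31 barcodes were left out by Kcnj8 altogether. Cldn5 stood at exactly 5 UMIs in 1 member and at exactly 4 in 2 barcodes outside. The shallowest members held 3523, 3729 and 5268 UMIs.

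Many Gkn3 barcodes also held smooth muscle transcripts, and this differed between libraries. The summed UMIs of Acta2, Tagln and Myh11, contractile genes of arterial smooth muscle, had medians of 6, 171 and 80 in Gkn3 barcodes and of 0, 12 and 4 in comparison barcodes. In smooth muscle barcodes the medians were 314, 514 and 423.5, and in oligodendrocyte barcodes 0, 3 and 2. Gkn3 barcodes therefore lay between oligodendrocyte and smooth muscle barcodes in both Glp1rEYFP libraries, and the GiprEYFP members were split. More than 20 such UMIs were present in 45.7%, 89.0% and 71.4% of Gkn3 barcodes and in 1.30%, 49.2% and 41.2% of comparison barcodes, so the gap between the classes was widest in the GiprEYFP library. In all, 112 of 151 Gkn3 barcodes, 76 of 830 comparison barcodes and 1.03% of oligodendrocyte barcodes were above 20. The other 39 Gkn3 barcodes numbered 25, 10 and 4, and 29 of them held at most 5. The class comparison was therefore also made on barcodes with at most 20 and with more than 20 such UMIs, where genes could be tested. These ranges were set after the data had been seen. Fewer genes were tested in them, and a gene that passed only in a range is not counted among the calls. Of the genes called below, 12 higher and 47 lower could be tested in neither range. The part of smooth muscle RNA in the results was otherwise not tested.

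**Figure D1:**
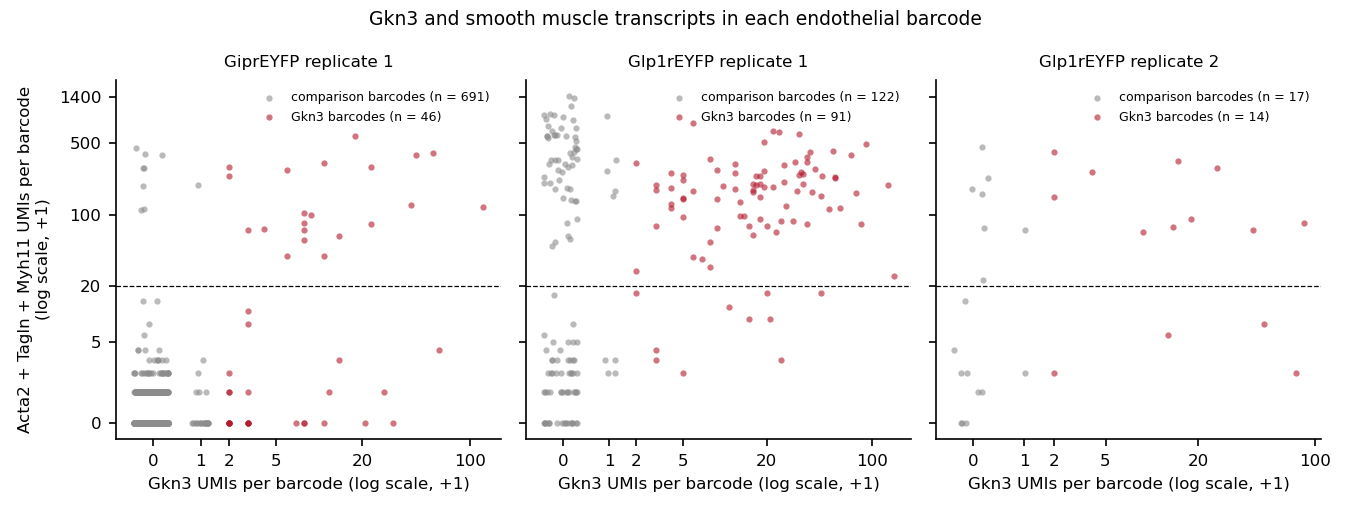
Each point is 1 endothelial barcode of the library named above the panel, with its Gkn3 UMIs (horizontal axis) and its summed Acta2, Tagln and Myh11 UMIs (vertical axis), both on a log scale after adding 1. Comparison barcodes at 0 and 1 Gkn3 UMI are spread sideways for visibility, and the dashed line marks 20 smooth muscle UMIs, above which 21 of 46, 81 of 91 and 10 of 14 Gkn3 barcodes lie.

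The classes also differed in depth. Gkn3 barcodes had medians of 9690.5, 12126 and 9739.5 UMIs, and comparison barcodes 7233, 8609 and 9457. The summed profiles held 576426, 1152382 and 169542 UMIs for Gkn3 barcodes and 5595779, 1316442 and 152341 for comparison barcodes. Glp1rEYFP replicate 2, with 14 and 17 barcodes, was the least precise. No member barcode sequence was shared between libraries, and at most 3 of the passing barcodes were shared by any pair. The doublet score of Scrublet placed 1, 1 and 0 Gkn3 barcodes among the highest of their library, at 0.8% per 1000 barcodes, against 14, 2 and 0 comparison barcodes.

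The label of arterial endothelium was checked against marker lists. The 25 arterial genes other than Gkn3 summed to 9212, 10753 and 10971 CPM in Gkn3 barcodes and to 2506, 3822 and 4411 in comparison barcodes. The 15 capillary genes summed to 5257, 1761 and 2017 against 20228, 9155 and 12104. Arterial sums were higher and capillary sums lower in Gkn3 barcodes of every library. The 11 endothelial genes other than Cldn5, which the rule used, summed to 12055, 7759 and 6382 in Gkn3 barcodes and 15318, 7417 and 9433 in comparison barcodes. Edn1, Sox17 and Sox18 had been put forward as markers of these cells with earlier results of these data known. They are part of the arterial sums above and of the arterial list tested below. Their part in these sums and their values below are not independent evidence for the label.

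Of 8390 genes tested that the rule had not used, 243 (2.9%) differed between the classes, 80 higher (0.954%) and 163 lower (1.94%) in Gkn3 barcodes. The test was edgeR's quasi-likelihood test on UMIs summed by class and library, with the library as a term and Benjamini-Hochberg adjusted p under 0.05. At an unadjusted p under 0.05 in the same test, 671 of the 8390 genes were higher and 695 lower. These counts over all genes are the background for the list counts below. The median log2 fold change was -0.04 over all tested genes, 1.72 over the higher and -1.83 over the lower genes. All 243 genes moved in the same direction in each of the 3 libraries, as did 3315 of all 8390, and the test itself favours genes with a small spread between libraries. The count depends on the smallest library, because without Glp1rEYFP replicate 2 no gene passed after adjustment, although 648 genes were higher and 723 lower at an unadjusted p under 0.05 and all 243 kept their direction. Leaving out Glp1rEYFP replicate 1 raised the number of higher genes to 219, and leaving out the GiprEYFP library raised it to 196.

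**Figure D2:**
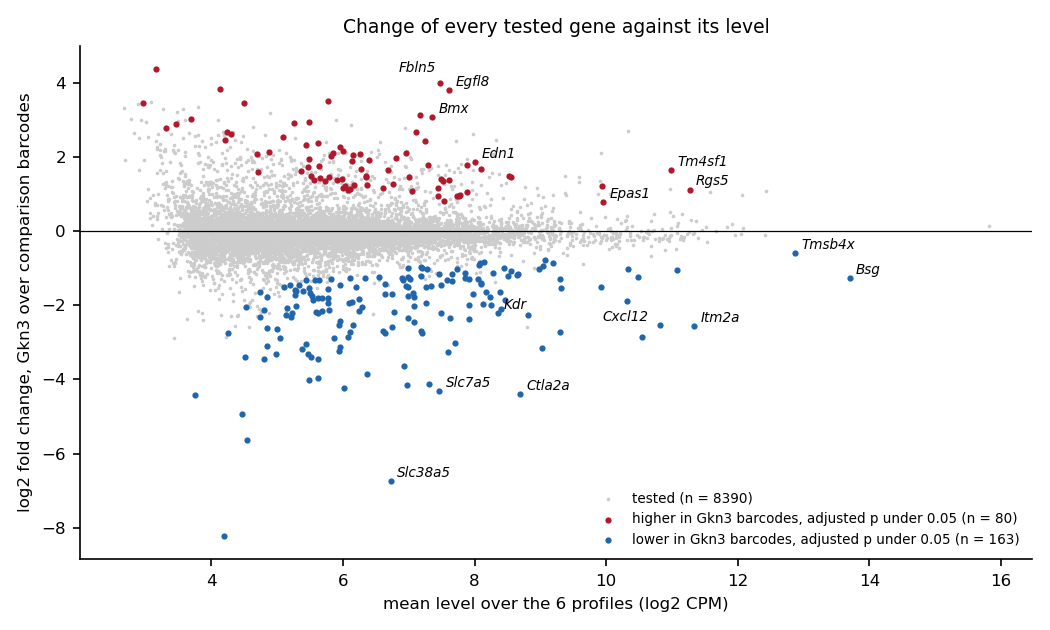
Each point is 1 of 8390 tested genes, with its mean level over the 6 summed profiles (horizontal axis, log2 CPM) and its log2 fold change in Gkn3 over comparison barcodes (vertical axis). Red marks the 80 genes that were higher and blue the 163 that were lower. Fitted values of genes at or near 0 in one class, such as Slc38a5, depend on the model and are no bound.

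Several genes of arterial identity were higher in Gkn3 barcodes. Of 22 arterial genes tested, 8 rose and 0 fell, 21 had a positive log2 fold change, and the list's median was 1.79. Bmx, a tyrosine kinase of arterial endothelium, had 345, 285 and 224 CPM in Gkn3 barcodes and 22.2, 28.9 and 91.9 in comparison barcodes. The classes did not overlap, with the comparison value highest in Glp1rEYFP replicate 2. The log2 fold change was 3.10 ± 0.46 (SE, 3 libraries, adjusted p = 0.0249). A Bmx UMI was found in 87.0%, 86.8% and 71.4% of Gkn3 barcodes, 6.22%, 11.5% and 41.2% of comparison barcodes and 0.413%, 0.290% and 0.521% of oligodendrocyte barcodes, whose median depths were 23669.5, 11948 and 11018 UMIs. After each barcode was thinned to 3000 UMIs, the share was 65.2%, 60.4% and 57.1% in Gkn3 barcodes and 3.18%, 7.38% and 11.8% in comparison barcodes.

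The secreted arterial genes followed the same order. Vegfc, a growth factor for lymphatic and blood vessels, stood at 232, 278 and 265 against 16.6, 33.4 and 59.1 CPM (log2 fold change 3.14 ± 0.30, adjusted p = 0.00675). Sema3g, a secreted semaphorin, stood at 241, 144 and 147 against 63.1, 31.1 and 39.4 (1.98 ± 0.17, adjusted p = 0.00531). Neither gene overlapped between classes in any library. Fbln5, which guides the assembly of elastic fibres, had 232, 390.5 and 359.8 against 3.22, 53.9 and 39.4, where the GiprEYFP comparison barcodes stood well below the others. Its log2 fold change was 4.02 ± 0.67 (adjusted p = 0.0334). Alpl, tissue-nonspecific alkaline phosphatase, rose by 2.44, the membrane protein Tm4sf1 by 1.65 and the Notch ligand Jag2 by 1.17 on the log2 scale, with adjusted p of 0.00711, 0.0156 and 0.032.

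Among the markers named for these cells, Edn1 passed the test and the SOX genes did not. Edn1, the precursor of the vasoconstrictor endothelin-1, had 531, 312 and 383 CPM in Gkn3 barcodes and 143, 92.7 and 72.2 in comparison barcodes. Every Gkn3 profile lay above every comparison profile, and the log2 fold change was 1.89 ± 0.17 (adjusted p = 0.00531). Sox17, a transcription factor of arterial specification, had 415, 554 and 448 against 281, 286 and 374, a log2 fold change of 0.57 ± 0.16 that missed the threshold (adjusted p = 0.134). It passed in both ranges of smooth muscle UMIs, with 0.91 at most 20 UMIs (adjusted p = 0.000903) and 0.73 above 20 (adjusted p = 0.0379). Sox18, its relative, had 472, 428 and 501 against 395, 337 and 486 (0.18 ± 0.12, adjusted p = 0.561), and its classes overlapped. Cldn5, used by the rule, had 2897, 2579 and 2867 against 3897, 2679.9 and 3341.

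**Figure D3:**
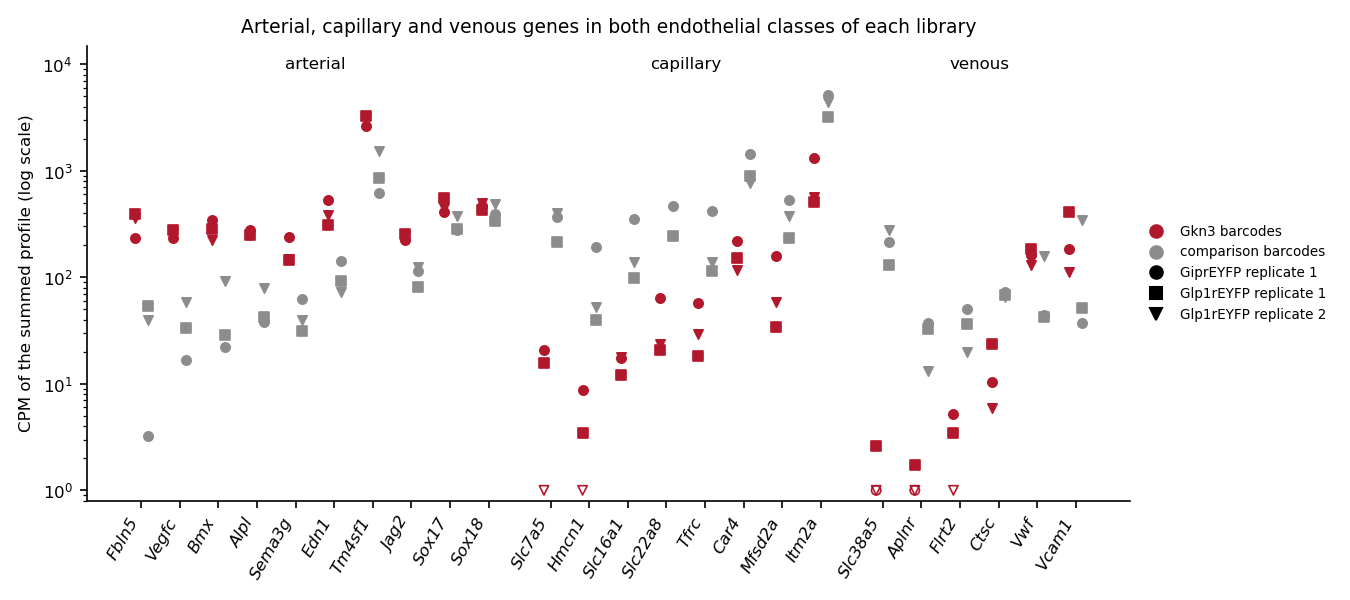
CPM of the summed profiles (log scale) are shown for arterial, capillary and venous genes, in Gkn3 barcodes (red) and comparison barcodes (grey). Each symbol is 1 library and open symbols at the bottom are values of 0. The first 8 arterial genes are higher and the first 4 venous and all capillary genes shown are lower in Gkn3 barcodes, and Sox17, Sox18, Vwf and Vcam1 did not pass the test.

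Other arterial genes had large differences that did not pass, of which Gja4, Hey1 and Efnb2 were picked with their values in view. Mgp, an inhibitor of calcification in the vessel wall, had 1738, 2181 and 2289 CPM against 82.0, 909 and 368 (log2 fold change 2.71 ± 0.59, adjusted p = 0.0799), and it passed in both ranges of smooth muscle UMIs (4.28 and 1.41). Gja4, a gap junction protein, had 224, 384 and 436 against 17.2, 218 and 144 (1.96 ± 0.55, adjusted p = 0.144), and smooth muscle barcodes held 465, 352 and 437. Above 20 smooth muscle UMIs the Gja4 value was 0.28 (adjusted p = 0.647), and below it was 4.08 (adjusted p = 4.82e-06). Hey1, a Notch target gene, had 177, 129 and 47.2 against 61.8, 29.6 and 59.1 (1.44 ± 0.36, adjusted p = 0.107), and it passed in both ranges (1.70 and 1.74, adjusted p = 0.00134 and 0.00245). Efnb2, the arterial ephrin, had 91.9, 66.0 and 64.9 against 44.1, 25.8 and 72.2 (0.91 ± 0.27, adjusted p = 0.162). For both, the Glp1rEYFP replicate 2 values were slightly lower in Gkn3 barcodes and the others higher.

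Some Notch signalling genes passed the test. Of 17 tested, 2 rose and 0 fell, where 0.954% and 1.94% of all tested genes did. Of the 17, 14 had a positive log2 fold change and 9 had an unadjusted p under 0.05. The median was 0.54 against -0.04 over all genes. Jag2 was joined by Nrarp, a feedback inhibitor induced by Notch, at 78.1, 128 and 106 against 10.4, 37.2 and 32.8 CPM (2.17 ± 0.29, adjusted p = 0.019). Smooth muscle barcodes held 103, 39.9 and 62.9 CPM of Nrarp, above the Gkn3 barcodes in the GiprEYFP library. Jag1, another ligand, had 139, 297 and 543 against 37.7, 177 and 197 (1.28 ± 0.24, adjusted p = 0.0522), and it passed at 20 or fewer smooth muscle UMIs (1.65, adjusted p = 0.000853) and not above (0.63, adjusted p = 0.12). Of 22 SOX, ETS, KLF, FOX and related factors, 1 rose and 2 fell. Epas1, a hypoxia-inducible factor, rose by 0.79 on the log2 scale (adjusted p = 0.0286). The ETS factor Fli1 and the LIM protein Lmo2 had log2 fold changes of -0.97 and -1.13 (adjusted p = 0.0303 and 0.0306). Fli1 passed in neither range of smooth muscle UMIs (-1.07 and -0.41, adjusted p = 0.057 and 0.583), and Lmo2 passed at 20 or fewer and not above (-0.58, adjusted p = 0.188). The flow-responsive factor Klf4 had 0.63 ± 0.14 (adjusted p = 0.0797) and passed in both ranges (0.89 and 0.65, adjusted p = 0.00285 and 0.0283).

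Elastic fibre and matrix genes were among the largest increases. Of 30 matrix and basement membrane genes tested, 6 rose and 1 fell, with a median of 0.56. Fbn1, the fibrillin of elastic microfibrils, had 26.0, 38.2 and 64.9 CPM against 1.07, 4.56 and 0 (3.86 ± 0.53, adjusted p = 0.0194). Fbln2, a fibulin, had 243, 227 and 248 against 20.6, 44.1 and 72.2 (2.68 ± 0.34, adjusted p = 0.0156). Both were above the smooth muscle barcodes in every library, at 2.06, 5.09 and 2.75 and 3.61, 0.614 and 0.550. Igfbp3, which binds insulin-like growth factors, had 137, 111 and 35.4 against 10.0, 11.4 and 0 (3.54 ± 0.27, adjusted p = 0.00506). Timp3, an inhibitor of matrix proteases, had 1233, 1214 and 1604 against 367, 656 and 696 (1.23 ± 0.18, adjusted p = 0.0229), and the laminin chain Lamb2 was the sixth gene that rose, though it passed in neither range of smooth muscle UMIs (0.62 and 0.55, adjusted p = 0.277 and 0.151). Vwa1, a basement membrane component, fell, with a log2 fold change of -1.52 (adjusted p = 0.0117). Sparc, an abundant matrix gene that did not pass, had 2417, 1580.2 and 1380.2 against 3251, 2263 and 1687 (-0.46 ± 0.10, adjusted p = 0.0797).

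Genes that act on vessel tone changed in part. Of 13 vasoactive genes tested, 2 rose, Edn1 and Ace, and 1 fell, Nostrin. Ace, the enzyme that converts angiotensin, had 78.1, 71.2 and 53.1 CPM against 6.08, 10.6 and 26.3 (2.94 ± 0.41, adjusted p = 0.021), and its classes did not overlap. Nostrin, which binds endothelial nitric oxide synthase, had 139, 88.5 and 142 against 636, 319.8 and 439.8 (-1.98 ± 0.16, adjusted p = 0.00508). Nos3, the synthase itself, had 119.7, 124 and 88.5 against 136, 78.2 and 39.4 (0.32 ± 0.27, adjusted p = 0.655).

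Growth factor and guidance genes changed in both directions. Of 30 tested, 2 rose, the secreted ligands Vegfc and Sema3g, and 5 fell, of which Kdr, Nrp2 and Aplnr are receptors, Sema3c is a secreted semaphorin and Sema7a a membrane-anchored one. Kdr, the main VEGF receptor of blood endothelium, had 226, 66.0 and 47.2 CPM against 913, 280.3 and 295 (-2.21 ± 0.16, adjusted p = 0.00506). Gkn3 barcodes were lower in every library, but the GiprEYFP Gkn3 value was close to the comparison values of the Glp1rEYFP libraries. Flt1, the decoy VEGF receptor, had 2040.2, 1305 and 826 against 2961, 1228 and 1267 (-0.40 ± 0.16, adjusted p = 0.28). Nrp2, a co-receptor, had a log2 fold change of -3.11 ± 0.34 and Sema3c of -2.20 ± 0.38 (adjusted p = 0.00953 and 0.0388). Of 19 TGF-beta and BMP genes tested, 1 rose, Smad6, an inhibitor of BMP signalling (1.47 ± 0.20, adjusted p = 0.0203), and 0 fell.

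Capillary genes were lower almost throughout. Of 15 capillary genes tested, 14 fell and 0 rose, with a median log2 fold change of -2.57. Slc7a5, the large neutral amino acid transporter, had 20.8, 15.6 and 0 CPM in Gkn3 barcodes and 369, 216 and 400.4 in comparison barcodes (-4.32 ± 0.41, adjusted p = 0.0068). Car4, a membrane carbonic anhydrase named here after its values were seen, had 217, 153 and 118 against 1439.8, 889.5 and 775 (-2.71 ± 0.12, adjusted p = 0.000958). Neither gene's classes overlapped. Hemicentin (Hmcn1), the monocarboxylate transporter Slc16a1, the organic anion transporter Slc22a8 and the cell cycle regulator Rgcc had log2 fold changes of -4.22, -3.63, -3.27 and -3.01, with adjusted p of 0.00508, 0.00531, 0.00431 and 0.00508. Lpl, lipoprotein lipase, was the single capillary gene that did not pass (1.62 ± 0.49, adjusted p = 0.169), and it stood at 82.1, 32.3 and 53.0 CPM in smooth muscle barcodes against 46.8, 29.5 and 35.4 in Gkn3 barcodes.

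Many transporters of the blood-brain barrier fell. Of 29 tested, 18 fell, 0 rose, 11 did not pass and all 29 had a negative log2 fold change, with a median of -1.92. Of these 29, 8 were also on the capillary list. Slc1a1, a glutamate transporter, had 31.2, 5.21 and 0 CPM against 323, 137 and 177 (-4.14 ± 0.41, adjusted p = 0.00727), and the organic anion transporter Slco2b1 had 17.3, 4.34 and 17.7 against 126, 73.7 and 78.8 (-3.24 ± 0.34, adjusted p = 0.00853). Both were below 6 CPM in Gkn3 barcodes of Glp1rEYFP replicate 1. Tfrc, the transferrin receptor that brings in iron, had 57.2, 18.2 and 29.5 against 422, 115 and 138 (-2.74 ± 0.20, adjusted p = 0.00506). Mfsd2a, a lysolipid transporter that also limits vesicle transport, had 158, 33.8 and 59.0 against 528, 235 and 374 (-2.37 ± 0.24, adjusted p = 0.00773). The Gkn3 values of Tfrc and Mfsd2a were highest in the GiprEYFP library and lay below all comparison values. Of the 91 Mfsd2a UMIs of the GiprEYFP Gkn3 barcodes, 44 lay in the 10 barcodes with exactly 2 Gkn3 UMIs. Slc2a1, the glucose transporter, had 1329, 929 and 731 against 1709.5, 839 and 1208 (-0.35 ± 0.17, adjusted p = 0.396), and its sign turned to 0.26 (adjusted p = 0.444) in barcodes with at most 20 smooth muscle UMIs.

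Some targets and feedback inhibitors of canonical Wnt signalling were lower. Of 16 Wnt genes tested, 4 fell and 0 rose, with a median of -0.59. The 4 were the transcription factor Lef1 at 252, 102 and 82.6 against 576, 227 and 322 CPM (-1.40 ± 0.18, adjusted p = 0.016) and the inhibitors Apcdd1, Nkd1 and Notum. Apcdd1 had 46.8, 37.3 and 23.6 against 306, 141 and 98.5 (-2.33 ± 0.23, adjusted p = 0.00719), and Nkd1 and Notum had log2 fold changes of -1.27 and -1.43 (adjusted p = 0.0149 and 0.0309). Nkd1 was higher in smooth muscle barcodes than in Gkn3 barcodes, at 312, 217 and 272 against 144, 128 and 118.

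Venous genes gave a divided picture. Of 12 tested, 4 fell and 0 rose. Slc38a5, an amino acid transporter, had 0, 3 and 0 UMIs in Gkn3 barcodes and 1191, 171 and 42 in comparison barcodes. In Glp1rEYFP replicate 1 this was 2.60 CPM (95% exact Poisson interval 0.537 to 7.61) against 129.9 (111 to 151), and 0 UMIs in the GiprEYFP library allows up to 5.20 CPM against 213. The classes were far apart in every library (adjusted p = 0.00506). Aplnr, the apelin receptor, Flrt2, an adhesion protein, and Ctsc, a lysosomal protease, also fell (adjusted p = 0.0153, 0.0101 and 0.0289). Vwf, the clotting factor of larger vessels, had 161, 186 and 129.8 against 44.1, 42.5 and 158 (1.41 ± 0.42, adjusted p = 0.164), and it passed in both ranges of smooth muscle UMIs (1.23 and 2.12). Vcam1, a leukocyte adhesion molecule, had 184, 409 and 112 against 37.3, 51.7 and 348 (1.53 ± 0.82, adjusted p = 0.452), and above 20 smooth muscle UMIs it passed (1.30, adjusted p = 0.033). For Vwf and Vcam1, Gkn3 barcodes were higher in 2 libraries and lower in Glp1rEYFP replicate 2.

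Few general endothelial and junction genes passed the test. Of 11 endothelial genes tested, Kdr fell and the other 10 did not pass, with 6 of the 11 at an unadjusted p under 0.05. Of 13 junction genes none passed edgeR's test, with 6 at an unadjusted p under 0.05 and 1 by DESeq2. Esam and Egfl7, an adhesion molecule and a secreted vascular factor, had log2 fold changes of -0.46 ± 0.13 and -0.47 ± 0.12 (adjusted p = 0.134 and 0.124). Of 8 caveolae and vesicle genes, Ehd4, an endocytic ATPase, rose (1.09 ± 0.17, adjusted p = 0.0292) and Mfsd2a fell. Of 17 adhesion, cytokine and clotting genes, 0 rose and 3 fell, the chemokine Cxcl12, the interleukin receptor Il6ra and Cd34. Cxcl12 had 1057, 279 and 401 CPM against 4342, 1669.7 and 2875 (-2.52 ± 0.17, adjusted p = 0.00467), and Il6ra and Cd34 had -2.11 and -0.85 (adjusted p = 0.0283 and 0.0319). Cd34 passed in neither range of smooth muscle UMIs (-0.51 and -0.31, adjusted p = 0.0502 and 0.614).

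None of 19 immediate early and heat shock genes passed edgeR's test, with 3 at an unadjusted p under 0.05 and 0 by DESeq2. Fos had 611, 666 and 2713 CPM in Gkn3 barcodes, 33.6, 1357 and 348 in comparison barcodes and 1159, 3716 and 3523 in smooth muscle barcodes (2.11 ± 1.10, adjusted p = 0.435). It passed in barcodes with at most 20 smooth muscle UMIs (2.53, adjusted p = 0.0134) and not above (0.46, adjusted p = 0.828). It was higher in Gkn3 barcodes of the GiprEYFP library and of Glp1rEYFP replicate 2 and lower in those of Glp1rEYFP replicate 1.

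Markers of mural cells were present beside these results. None of 10 smooth muscle genes passed edgeR's test, with 2 at an unadjusted p under 0.05 and 0 by DESeq2. Acta2 had 3159, 7801 and 5975 CPM in Gkn3 barcodes, 227, 10189 and 4470.2 in comparison barcodes and 16309, 27243 and 29669 in smooth muscle barcodes (1.09 ± 0.81, adjusted p = 0.606). The ranges were set on UMIs of Acta2, Tagln and Myh11, so tests of these genes within them decide nothing and their values are a description. Their log2 fold changes were 1.48, 1.53 and 2.30 at 20 or fewer such UMIs, and -0.67, -0.79 and -0.43 above 20. Over all barcodes, Acta2 levels of Gkn3 barcodes were above comparison barcodes in the GiprEYFP library and Glp1rEYFP replicate 2, below them in Glp1rEYFP replicate 1, and below smooth muscle barcodes in all libraries. The 10 smooth muscle genes summed to 9467, 19666 and 14427 CPM in Gkn3 barcodes and 848.5, 25703 and 10444 in comparison barcodes. In droplets with at most 100 UMIs, taken as empty, they summed to 4984, 34617 and 35557 CPM. This was above both classes in the Glp1rEYFP libraries and between them in the GiprEYFP library. The part of free RNA in the smooth muscle UMIs was not tested. Of 7 pericyte genes tested, 3 rose and 0 fell. They were Vtn (1.47 ± 0.13, adjusted p = 0.00531), Rgs5 (1.13 ± 0.14, adjusted p = 0.0149) and Ndufa4l2 (1.69 ± 0.24, adjusted p = 0.0203). Rgs5, a regulator of G protein signalling typical of mural cells, had 5475, 2969.5 and 1935 against 2029.6, 1206 and 1129, and smooth muscle barcodes had 4274, 301 and 438, below the Gkn3 level in every library. Vtn had 782, 535 and 307 against 254, 184 and 125 and Ndufa4l2 357, 493 and 372 against 71.7, 159.5 and 177. In smooth muscle barcodes they stood at 783, 114 and 127 and at 551, 101 and 197, not below Gkn3 barcodes in the GiprEYFP library. In empty droplets of that library, taken as those with at most 100 UMIs, Vtn stood at 4435 and Ndufa4l2 at 654, above its Gkn3 barcodes, and the part of free RNA in these rises was not tested. Kcnj8 was held down by the rule in both classes. Abcc9 was limited to 1 UMI in comparison barcodes only, and it reached 2 or more in 6, 1 and 0 members. With at least 10 Cldn5 UMIs and at most 1 of Kcnj8 and of Abcc9 in both classes, no named gene tested changed sign. In that setting 87 kept their result, 2 newly passed and 1 no longer passed. The part of the unequal limits in the rises of pericyte genes was not otherwise tested.

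Markers of other cells were present at various levels. In Gkn3 barcodes the 7 neuron genes summed to 3.47, 8.68 and 5.90 CPM, with Gad1 the most abundant and Slc17a6, Slc32a1 and Rbfox3 at 0 in every library. The 8 fibroblast genes summed to 833, 395 and 47.2 against 325, 227 and 118, with Apod leading in GiprEYFP replicate 1 and Glp1rEYFP replicate 1 and Col1a2 in the other library, and none of 4 tested passed edgeR's test, with 1 at an unadjusted p under 0.05 and 1 by DESeq2. The 7 microglia genes summed to 3.47, 100.7 and 5.90 against 2.32, 501 and 13.1, led by C1qb, C1qb and Mrc1. The 7 astrocyte and ependymal genes summed to 34.7, 26.9 and 17.7, led by Gja1, with Ccdc153 and Tmem212 at 0 in all libraries. The 4 lymphatic genes summed to 19.1, 15.6 and 5.90, led by Flt4. Red blood cell genes summed to 8.67, 0.868 and 0 in Gkn3 barcodes and reached 2921 in GiprEYFP comparison barcodes only, led there by Hbb-bs.

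The calls were then read against smooth muscle RNA. Of the 80 higher genes, 59 (73.8%) had a level in Gkn3 barcodes above that of smooth muscle barcodes in all 3 libraries, and so did 123 of the 163 lower genes (75.5%), against 43.5% of all tested genes. In barcodes with at most 20 smooth muscle UMIs, 2611 genes could be tested and 109 (4.17%) were higher and 110 (4.21%) lower. All 40 higher and all 114 lower genes that could be tested there kept their direction, as did 75.9% of all genes tested, and 37 and 85 passed. In barcodes with more than 20, 4481 genes were tested and 88 (1.96%) were higher and 102 (2.28%) lower. All 67 higher and all 105 lower genes tested there kept their direction, as did 70.7% of all genes tested, and 51 and 68 passed. The ranges are parts of the barcodes that gave the calls and are not independent of them. With at most 5 smooth muscle UMIs, 109 of 110 lower and all 34 higher genes tested kept their direction. The share over all genes tested was not taken at that limit. In both ranges 34 higher genes passed, among them Bmx, Edn1, Vegfc, Sema3g, Fbln5, Alpl, Tm4sf1, Egfl8 and Epas1, and so did 59 lower genes, among them Slc38a5, Slc7a5, Car4, Tfrc, Mfsd2a, Kdr and Cxcl12. Called genes that could be tested in neither range numbered 12 higher and 47 lower. Named genes among them were Fbn1, Ntn1, Cmip, Hmcn1, Aplnr, Flrt2, Nrp2, Notum, Il6ra, Mt2, Car5a and Ddc. Of the 68 higher and 116 lower genes that could be tested in at least 1 range, 14 and 22 passed in none. Among those named here, these were Fli1, Cd34, Col5a2, Lamb2, Ehd4 (0.74 above 20, adjusted p = 0.0654) and Tmsb4x (-0.59 and -0.18, adjusted p = 0.0559 and 0.759). Jag2, Lef1, Sema7a and Lmo2 passed at 20 or fewer but not above (0.86, -0.78 and -0.58 for the first 3, adjusted p = 0.0752, 0.0581 and 0.319), and Sema3c above 20 but not at 20 or fewer (-0.90, adjusted p = 0.0901).

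Sizes differed between the ranges. Fbln5 had a log2 fold change of 5.64 in barcodes with at most 20 smooth muscle UMIs and 2.26 above, and Vegfc 4.45 and 1.79. Mfsd2a went the other way, with -0.77 and -3.19, and Car4 had -3.95 and -1.43. Edn1 had 2.22 and 2.02, and Slc7a5 -3.68 and -3.65. The difference between the ranges was not tested.

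**Figure D4:**
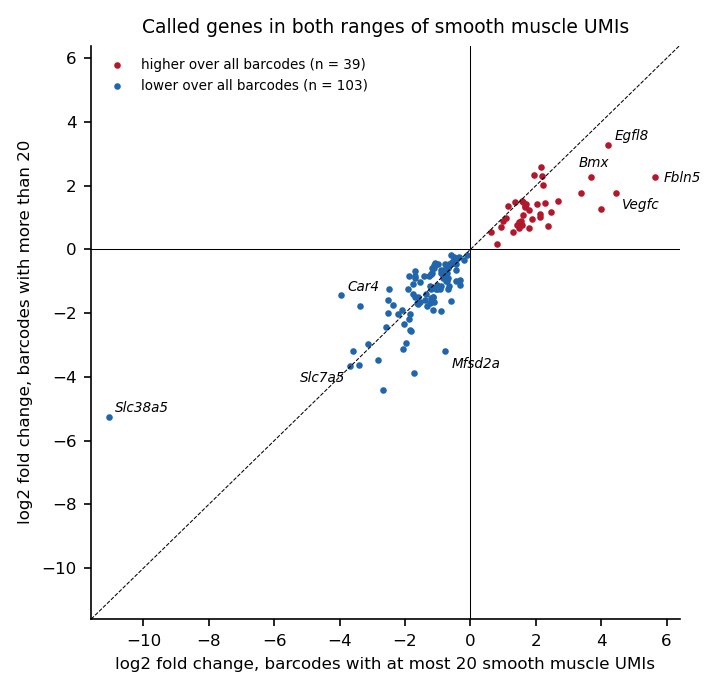
Each point is a gene called over all barcodes that could be tested in both ranges (39 higher in red, 103 lower in blue). Its log2 fold change in barcodes with at most 20 smooth muscle UMIs is on the horizontal axis and that in barcodes with more than 20 on the vertical axis. The dashed line marks equal values, all points lie on the same side of 0 on both axes, and Fbln5 and Mfsd2a are among those far from the line.

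Within the endothelial barcodes, arterial and capillary genes varied with the number of Gkn3 UMIs, here over all barcodes with at least 5 Cldn5 UMIs and at most 1 Kcnj8 UMI. In the GiprEYFP library, barcodes with 0, 1, 2 to 4, 5 to 19 and 20 or more Gkn3 UMIs numbered 815, 28, 19, 17 and 10. Their Bmx levels were 21.0, 93.3, 329, 318 and 412 CPM. Their Mfsd2a levels were 495, 339.7, 351, 69.3 and 61.7, and their Slc38a5 levels were 209.7, 33.3, 0, 0 and 0. In this library, barcodes with 2 to 4 Gkn3 UMIs thus had Bmx near that of barcodes with more Gkn3 and Mfsd2a near that of barcodes with 1. Their median smooth muscle UMIs were 0, 0, 1, 57 and 101.5 and their median depth was 7510, 8038, 7516, 12002 and 17282 UMIs, so Gkn3 UMIs, depth and smooth muscle UMIs moved together. In the same groups of Glp1rEYFP replicate 1, Bmx was 23.9, 74.6, 196, 274 and 307 CPM and Mfsd2a 252, 67.8, 30.9, 34.8 and 33.5. Glp1rEYFP replicate 2 had groups of 17, 2, 4, 5 and 5 barcodes. Bmx was 114, 107, 22.5, 227 and 415 CPM there and Mfsd2a 362, 535, 45.1, 101 and 0. In every library Bmx was thus higher and Mfsd2a lower at 20 or more Gkn3 UMIs than at 0. The 4 barcodes with 2 to 4 Gkn3 UMIs in Glp1rEYFP replicate 2 did not follow the GiprEYFP order.

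**Figure D5:**
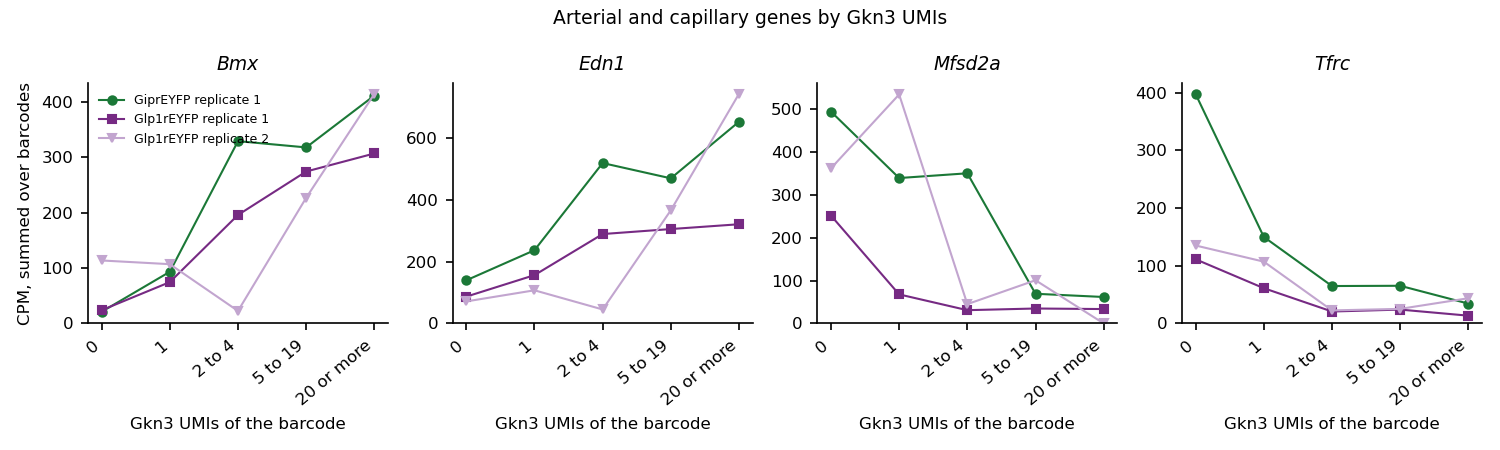
CPM of Bmx, Edn1, Mfsd2a and Tfrc (vertical axes, each from 0) are shown for endothelial barcodes grouped by their Gkn3 UMIs, with 1 line per library. In the GiprEYFP library Bmx goes from 21.0 at 0 Gkn3 UMIs to 412 at 20 or more and Mfsd2a from 495 to 61.7. The Glp1rEYFP replicate 2 groups hold 2 to 17 barcodes.

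Genes with a pattern most like Gkn3 were ranked by the ratio of their level in Gkn3 barcodes, summed over the 3 libraries, to that of the next highest of 6 gated classes. Gkn3 had a ratio of 363. Cytl1, which encodes a small secreted protein, came next with 130, at 24.3, 90.2 and 5.90 CPM against 0, 1.52 and 0. It was read from 119 UMIs, of which 104 lay in Glp1rEYFP replicate 1, and it was too sparse to be tested. Egfl8, a secreted EGF-like protein, had 18.5, Vegfc 12.7, Bmx 11.9, Ace 9.73, Sbspon 5.09, Eps8l2 4.95, Fabp4 4.18, Vwf 3.74 and Ptprr 3.58. These ratios mix libraries, because most Gkn3 barcodes came from Glp1rEYFP replicate 1 and most comparison barcodes from GiprEYFP replicate 1. Within libraries, Gkn3 over comparison barcodes gave 14.2, 15.8 and 13.0 for Egfl8, 14.0, 8.31 and 4.49 for Vegfc, 15.6, 9.86 and 2.44 for Bmx, and 12.8, 6.69 and 2.02 for Ace. Vwf had 3.66, 4.37 and 0.824 and Fabp4 7.77, 0.326 and 2.51, each below 1 in one library. The next class was comparison endothelium for all of these but Cytl1 and Sbspon, for which it was smooth muscle. Egfl8 stood at 278, 467 and 342 against 19.5, 29.6 and 26.3 CPM (3.81 ± 0.16, adjusted p = 0.000958), with no overlap and a similar ratio in each library. Eps8l2, an actin-linked adaptor, and the phosphatase Ptprr rose by 2.11 and 1.39 on the log2 scale (adjusted p = 0.00508 and 0.0165). Fabp4, a fatty acid binding protein, had 6.94, 13.9 and 478 against 0.894, 42.5 and 190.4 and rests on Glp1rEYFP replicate 2. Gja5, an arterial gap junction gene chosen here after its values were seen, was also too sparse to test, at 31.2, 38.2 and 5.90 against 0.894, 1.52 and 0.

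Beyond the lists, the largest increases at 20 or more CPM included the guidance cue Ntn1 (36.4, 38.2 and 35.4 against 4.83, 6.84 and 6.56, log2 fold change 2.62 ± 0.34), Sbspon, whose protein has a thrombospondin domain (2.96 ± 0.31), Cmip (2.69 ± 0.39) and the fibrillar collagen Col5a2 (2.56 ± 0.39). Their adjusted p were 0.0162, 0.00802, 0.0237 and 0.026. Ntn1 stood at 47.1, 12.7 and 2.34 CPM in empty droplets, above the Gkn3 barcodes in the GiprEYFP library. The part of free RNA in its rise was not tested. Col5a2 stood at 28.6, 35.1 and 17.4 in smooth muscle barcodes against 78.1, 52.9 and 47.2 in Gkn3 barcodes, and above 20 smooth muscle UMIs, the one range in which it could be tested, it did not pass (0.90, adjusted p = 0.167).

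The largest decreases beyond the lists included Ctla2a, an inhibitor of cysteine proteases, at 79.8, 18.2 and 17.7 against 822, 574 and 893 CPM (-4.39 ± 0.39, adjusted p = 0.00531). Ndnf, a secreted factor, had 20.8, 16.5 and 0 against 452, 181 and 164 (-4.13 ± 0.37, adjusted p = 0.00531). In both, the Gkn3 barcodes were lower in each library without overlap. Ttyh2, a membrane protein, the metallothionein Mt2, the Rac exchange factor Tiam1, the mitochondrial carbonic anhydrase Car5a and the decarboxylase Ddc had log2 fold changes of -4.02, -3.96, -3.85, -3.44 and -3.40, with adjusted p from 0.00508 to 0.0108. In empty droplets Ttyh2 stood at 165, 93.3 and 93.6 CPM, above the 80.6, 61.5 and 72.2 of comparison barcodes. The part of free RNA in its decrease was not tested. The most abundant genes that fell were Bsg, basigin, a partner of monocarboxylate transporters (9396, 7846 and 6435 against 20934, 15018 and 18413, -1.25 ± 0.12), Tmsb4x, an actin-binding thymosin (-0.58), the membrane protein Itm2a (-2.57), the ribosomal protein Rpl38 (-1.04) and Cxcl12. Their adjusted p were at most 0.0274.

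The reporter used for the sort was detected in Gkn3 barcodes. EYFP stood at 356, 271 and 118 CPM in Gkn3 barcodes, 58.1, 236 and 177 in comparison barcodes and 953, 392 and 378 in smooth muscle barcodes (0.87 ± 0.58, adjusted p = 0.561). In barcodes with at most 20 smooth muscle UMIs it was 134, 57.3 and 100.4 in Gkn3 barcodes and 48.6, 64.6 and 52.0 in comparison barcodes, where droplets with at most 100 UMIs, taken as empty, stood at 244, 156 and 169.6. After thinning to 3000 UMIs, an EYFP UMI was found in 47.8%, 52.7% and 57.1% of Gkn3 barcodes, 13.3%, 29.5% and 17.6% of comparison barcodes and 38.6%, 31.0% and 35.4% of oligodendrocyte barcodes, and in 69.6%, 85.7% and 78.6% of Gkn3 barcodes before thinning. Gipr was found in 0 of 46, 0 of 91 and 0 of 14 Gkn3 barcodes, which allows shares of barcodes with a Gipr UMI of up to 6.52%, 3.30% and 21.4%. This limits detection and not expression, since Gipr was found in 40.6% of neuron barcodes of the GiprEYFP library and in 4.69% of them after thinning to 3000 UMIs. Glp1r was found in 0, 5 and 0 of them, at 4.34 CPM in Glp1rEYFP replicate 1 against 15.2 in its empty droplets and 187 in its neurons. Neither receptor was therefore detectable above free RNA at this depth.

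The share of Gkn3 barcodes among both endothelial classes differed between libraries. It was 6.24% in the GiprEYFP library (95% exact binomial interval 4.61 to 8.24), 42.7% in Glp1rEYFP replicate 1 (36.0 to 49.7) and 45.2% in Glp1rEYFP replicate 2 (27.3 to 64.0). The intervals of the Glp1rEYFP libraries overlapped and that of the GiprEYFP library lay below both. Among barcodes with at most 20 smooth muscle UMIs the shares were 3.54%, 13.9% and 28.6%, and above 20 they were 70.0%, 57.4% and 58.8%. With 1 GiprEYFP library no test between genotypes was made on the shares, which also depend on the sort gate, and the intervals cover counting error only.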

How the data were processed

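Single-cell suspensions were sorted for EYFP and profiled with 10x Genomics 3′ chemistry. The authors deposited raw UMI counts per gene and barcode for 3 libraries, with empty droplets included and 32533 genes listed in each. The submitters' processing notes name Cell Ranger 6.1.2 and build GRCm39, and the matrix header names Cell Ranger 4, so no gene coordinates were set beside the counts. The libraries held 13568994 to 62705038 UMIs, and the summed profiles that were tested held 152341 to 5595779.

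Barcodes were classed by the rule in the text and UMIs were summed by library and class. The 6 profiles were fitted in edgeR 4.0.16 (R 4.3.3) with TMM scaling, filterByExpr, library and class as terms, and the quasi-likelihood test, with Benjamini-Hochberg adjustment over 8390 genes. SE is the size of the log2 fold change divided by the square root of F. Gkn3, Cldn5, Kcnj8, Abcc9 and 13 mt- genes were kept out of the tests. Levels are CPM, the UMIs of a gene per 1000000 UMIs of the summed profile. Intervals are exact at 95% and cover counting error only, and a count of 0 was given the limit of 3 UMIs. No barcode was removed as a doublet. Scrublet's own threshold called 50, 28 and 2 of the 4712, 2185 and 1185 passing barcodes, so its highest scores were left out as an alternative. The pools of mice are the replicates. Whether they were separate litters or days is not given in the sources used here.

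On simulated counts of 8303 genes for this comparison, the fit recovered 46 of 50 genes raised 4-fold, 35 of 50 lowered 4-fold and 7 of 50 each for 2-fold, and called 5 of 8103 unchanged genes. Every gene was drawn with a dispersion (spread beyond counting error) of 0.1. The changed genes had a mean of at least 50 CPM and the same change in each library. The simulation held no class difference that varied between libraries, so its counts are no error rate of the real comparison. The members, marker lists and tests were chosen with earlier results of these data known. Genes were named by list (up to 6 that passed with the largest change and 3 abundant ones that did not), by size of change (12 each way at 20 or more CPM), by abundance (5 each way) and by likeness to Gkn3 (10). Car4, Efnb2, Gja4, Gja5 and Hey1 were added after their values were seen. Of 26 lists, the genes Ctgf and Cyr61 were not matched by symbol. The summed level of the oligodendrocyte list is not reported here. Alternatives were DESeq2 1.42.0, no filter, no library term, other thresholds, thinning to 3000 UMIs, limits on smooth muscle UMIs and each library left out.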

Additional observations from a re-analysis of the deposited data

Results flagged for a closer look

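For several named genes the difference between Gkn3 and comparison barcodes had another size in the GiprEYFP library than in the Glp1rEYFP libraries. It was taken from a fit with an interaction of class and genotype, which has 1 GiprEYFP library and a single residual degree of freedom, so the GiprEYFP value has no spread of its own, genotype and library cannot be told apart, and the values are given as a description with no p. The log2 effect in Glp1rEYFP minus that in GiprEYFP was -3.77 for Acta2, -3.81 for Tagln and -3.67 for Myh11, and -1.62 for the mural receptor Pdgfrb. Among arterial genes it was -3.20 for Fbln5, -2.54 for Mgp and -2.60 for Gja4. It was -1.72 for Sema3c, -1.75 for Ctla2a, -3.44 for Fos and -2.63 for EYFP. These genes were picked from the named genes by the test of that same fit, so they are a selection. All of these values are negative, and whether the shift is particular to these genes was not tested. GiprEYFP comparison barcodes held smooth muscle UMIs with a median of 0 against 12 and 4 in the other libraries, and the part of this in the differences was not tested. Nos3 had a log2 ratio of -0.18 in the GiprEYFP library and was higher in Gkn3 barcodes of both Glp1rEYFP libraries, and whether this differs between genotypes could not be shown.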

How the results depend on the processing

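The counts of 80 higher and 163 lower genes moved by over 1.5 times in these settings. DESeq2 called 137 higher genes, and among the lists it called 14 arterial, 5 pericyte and 5 guidance genes higher. With no filter on low counts 596 were higher and 483 lower. Thinning to 3000 UMIs gave 133 higher. With at most 5 smooth muscle UMIs 76 were lower, and with more than 20 102 were lower, both from fewer genes tested. Without the library as a replicate block, 24 genes were higher and 52 lower, all of them among the main calls. Leaving out each library in turn gave 0 to 219 higher and 0 to 236 lower genes, with 0 in both directions without Glp1rEYFP replicate 2. The cause was not tested. No paired analysis was possible between genotypes because GiprEYFP has 1 replicate and shares a single number with Glp1rEYFP.

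Among the named genes that could be tested in each setting, no sign changed under DESeq2, no filter, the other thresholds, thinning or the removal of high Scrublet scores. The sign turned to 0.26 for Slc2a1 in barcodes with at most 20 smooth muscle UMIs. Above 20 it turned to 0.0061 for Flt1, -0.67 for Acta2, -0.79 for Tagln, -0.43 for Myh11, -0.54 for Fabp4 and -0.28 for EYFP. It turned to -0.081 for Tagln without the replicate block. Over the libraries left out in turn, the log2 fold change ranged from -0.0053 to 2.12 for Acta2, from -0.13 to 2.07 for Tagln and from -0.064 to 1.51 for EYFP, each lowest without GiprEYFP replicate 1, and from -0.73 to 1.61 for Fabp4, lowest without Glp1rEYFP replicate 2. None of these genes passed over all barcodes. The ranges were set on UMIs of Acta2, Tagln and Myh11, so the signs of these genes within the ranges are a description. Glp1rEYFP replicate 2, on which the calls depend, also had the smallest summed profiles, with 169542 and 152341 UMIs from 14 and 17 barcodes.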
